A study of Mus musculus with 12 samples.

Results

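The circadian clock genes described here were Arntl, Clock, Npas2, Per1, Per2, Per3, Cry1, Cry2, Nr1d1 and Dbp, taken by gene name alone. They made up 10 of the 55901 genes in the expression table. The study asked how the cytokine TGF-β1 acts on mechanically injured neurons. Poly(A) RNA was sequenced from primary cortical neurons of C57BL/6J mice taken within 24 h of birth, in 3 groups of 4 libraries. Every culture received arabinosylcytosine, a DNA synthesis inhibitor that limits dividing glia, for 24 h on day 1 and was used between culture days 8 and 10. Control cultures were uninjured, Trauma cultures were scratched, and Trauma + TGF-β1 cultures had the scratch together with TGF-β1 at 10 ng/mL, both scratched groups being taken after 24 h. The protocol describes a change of medium just before scratching, and does not say whether Control wells had it. The labels do not say whether the libraries of a group came from separate cultures or litters, and the study's methods describe fewer sequenced samples than the table has libraries, so what a library stands for is uncertain and the p-values measure only the spread between libraries. Each culture was sampled once and the hour of collection is not given in the sources used here, so rhythm, phase and amplitude were not measured.

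The molecular clock of mammalian cells is a feedback loop in transcription. BMAL1, made from Arntl, pairs with CLOCK or with its relative NPAS2 and binds E-boxes in the promoters of the period genes Per1, Per2 and Per3 and of the cryptochrome genes Cry1 and Cry2, whose proteins then repress the pair. A second loop runs through Nr1d1, whose product REV-ERBα represses Arntl, while Dbp is a direct output of the pair and encodes an activator that binds D-boxes. Cultured neurons and glia both carry this clock, and Per1 is also an early target of cyclic AMP and glucocorticoid signalling.

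Values are FPKM, which scale fragments by gene length and library size and so compare genes per length. Reads assigned to genes ranged from 15052486 to 17381671 per library. All 10 clock genes passed the minimum mean of 0.5 FPKM and were tested among 15016 genes, and each had between 161 and 1997 reads in every library. On the first principal component over the tested genes, Control 1 lay at -13.04 and the other Control libraries between 25.12 and 30.03, so Control 1 stood apart from its group. The neuron label held, with 8 neuronal markers summing to between 1145 and 1423 FPKM. Markers of astrocytes summed to between 206 and 324 FPKM, of oligodendrocyte lineage to between 46.3 and 64.7, and of microglia to between 24.0 and 40.7, so the cultures were mixed. Vascular and fibroblast markers summed to at most 2.18 and 3.12 FPKM.

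In the uninjured Control cultures, the 4 most abundant of the 10 transcripts on the FPKM scale all encode clock repressors. Cry2 led at 17.2 ± 1.46 FPKM (SD, n = 4), followed by Nr1d1 at 13.0 ± 1.25 and Per1 at 11.3 ± 0.622, the last pair with overlapping ranges. Cry1 stood at 7.28 ± 0.670 FPKM, and the ranges of Per1 and Cry1 did not overlap. In the middle came Clock at 5.39 ± 0.467, Dbp at 5.29 ± 0.747 and Arntl at 4.53 ± 0.629 FPKM, near the median of all tested genes of 5.15. Clock and Dbp did not differ beyond their spread, since Clock was the higher in 2 of 4 Control libraries. Npas2, the paralog of Clock, was lower at 3.37 ± 0.499 FPKM. Per2 at 2.07 ± 0.299 and Per3 at 1.89 ± 0.124 FPKM closed the order, with overlapping ranges. Per1 therefore exceeded the other period genes in each of the 12 libraries. Averaged over all libraries, Cry2 ranked above 79.1% and Per3 above 25.6% of tested genes.

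**Figure D1:**
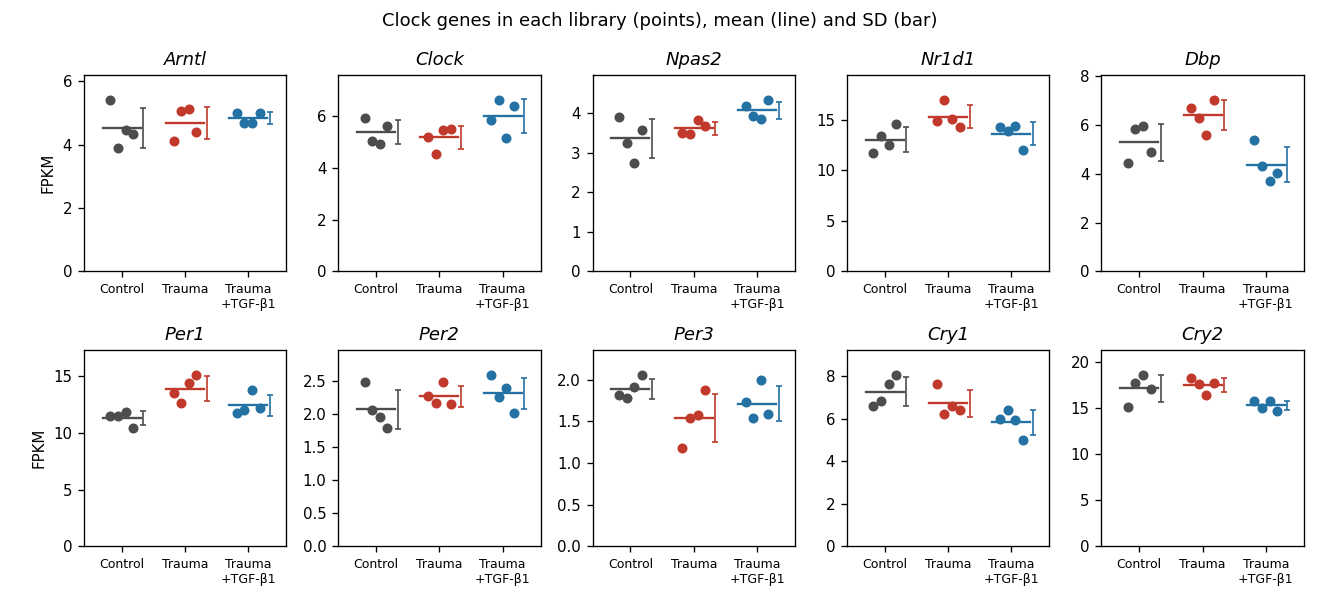
FPKM (vertical axes, each from 0) of the 10 clock genes in each of 12 libraries by group (horizontal axes); points are libraries, lines are means and bars are SD, n = 4. Per1 lay at or above 12.6 FPKM in each Trauma library and at or below 11.9 in each Control library, and Dbp was lower in each Trauma + TGF-β1 library than in each Trauma library.

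Sequence upstream of the start sites is shown for Per1 and Cry1, which were called in a comparison below and hold E-boxes, and for Ciart, a further clock gene with the largest change of the pathway. The windows are the 250 bases before each RefSeq start on GRCm38.p6, written 5′ to 3′ on the gene's strand. Capitals mark the E-box CACGTG or the related E'-box CACGTT on either strand. Per1 is chr11:69098699-69098948 on the plus strand, Cry1 is chr10:85185055-85185304 on the minus strand, and Ciart is chr3:95882229-95882478 on the minus strand.
Per1: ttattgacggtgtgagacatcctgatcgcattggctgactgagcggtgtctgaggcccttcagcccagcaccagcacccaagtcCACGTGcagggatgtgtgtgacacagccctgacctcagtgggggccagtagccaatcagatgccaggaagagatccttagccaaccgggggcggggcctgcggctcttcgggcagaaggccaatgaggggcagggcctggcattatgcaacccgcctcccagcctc
Cry1: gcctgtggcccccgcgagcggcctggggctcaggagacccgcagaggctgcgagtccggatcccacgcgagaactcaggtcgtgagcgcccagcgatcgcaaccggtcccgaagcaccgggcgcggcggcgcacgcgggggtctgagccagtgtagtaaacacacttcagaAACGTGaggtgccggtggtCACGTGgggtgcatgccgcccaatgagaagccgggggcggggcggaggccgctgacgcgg
Ciart: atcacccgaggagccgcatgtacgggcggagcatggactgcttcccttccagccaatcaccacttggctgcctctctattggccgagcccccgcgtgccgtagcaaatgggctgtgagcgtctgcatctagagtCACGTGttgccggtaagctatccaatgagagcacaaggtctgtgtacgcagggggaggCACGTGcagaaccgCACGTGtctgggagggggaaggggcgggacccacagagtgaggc

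Per1 carried 1 E-box, 166 bases before this start. The 250 bases before its other RefSeq start, chr11:69099902-69100151, held neither an E-box nor an E'-box. Cry1 carried 1 E-box at 60 bases and 1 E'-box at 79 bases before its start. Ciart carried 3 E-boxes, at 116, 58 and 44 bases, and the 250 bases before the RefSeq start of Dbp held neither sequence. Over the 32851 promoter windows in the RefSeq table, 6.02% held an E-box and 3.85% an E'-box within the 250 bases. Windows were found for 9 of the 10 clock genes, 13 windows in all, and E'-boxes were also read in those of Cry2 and Nr1d1. Per3 carried the D-box TTATGTAA at both 205 and 158 bases before its start, as shown here with 12 bases on each side, first chr4:151044851-151044882 and then chr4:151044804-151044835 on the minus strand.
Per3 at 205: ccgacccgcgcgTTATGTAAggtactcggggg
Per3 at 158: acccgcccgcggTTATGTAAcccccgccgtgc
A D-box, read as TTATGTAA or TTACGTAA on either strand, was in 0.93% of all windows. The cyclic AMP element TGACGTCA, held by 1.55% of windows, was in none of the clock gene windows before the start, and neither was the REV-ERB element core TAGGTCA, held by 2.23%. After the start, TAGGTCA began at base 31 of the second RefSeq start of Arntl. With the 50 bases after the start included, 2.61% of all windows held it. No motif overlapped another. A match of letters is a description of the sequence and not a bound site, and the absence of these letters from a window says nothing about the factor.

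Across the comparisons, 1 of the 10 clock genes was called in each, and it was a different gene each time. A gene was called at an adjusted p of at most 0.05 in a limma fit of all 12 libraries, with the Benjamini-Hochberg adjustment over all genes tested. Per1 was 1.23-fold higher in scratched than in uninjured cultures. Among scratched cultures, those given TGF-β1 had less Dbp, at 0.684 of the Trauma level. Scratched cultures with TGF-β1 had less Cry1 than uninjured cultures, at 0.803 of the Control level. The background was 6.00% of all tested genes called for Trauma against Control, 12.1% for Trauma + TGF-β1 against Trauma and 16.6% for Trauma + TGF-β1 against Control. By direction these were 3.30% higher and 2.70% lower, 4.40% higher and 7.71% lower, and 6.14% higher and 10.4% lower. A count of 1 in 10 stood near those shares, which is no result about the clock genes as a group. The comparisons share libraries, so their values are set side by side and are not independent.

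The sizes of change were also close to those of all tested genes. The median log2 fold change of the clock genes was 0.08 for Trauma against Control, beside -0.01 over all tested genes. For Trauma + TGF-β1 against Trauma the medians were -0.07 and 0.00, and for Trauma + TGF-β1 against Control 0.09 and -0.01. Without regard to sign, the median change of the clock genes was 0.12, 0.17 and 0.15 on the log2 scale in that order, beside 0.11, 0.14 and 0.15 over all tested genes. At an unadjusted p of at most 0.05, 3, 5 and 4 of the 10 clock genes passed, against backgrounds of 20.0%, 29.2% and 31.1%. The ranges of the groups did not overlap for 1, 3 and 1 of the clock genes, against backgrounds of 12.9%, 22.2% and 18.5%.

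**Figure D2:**
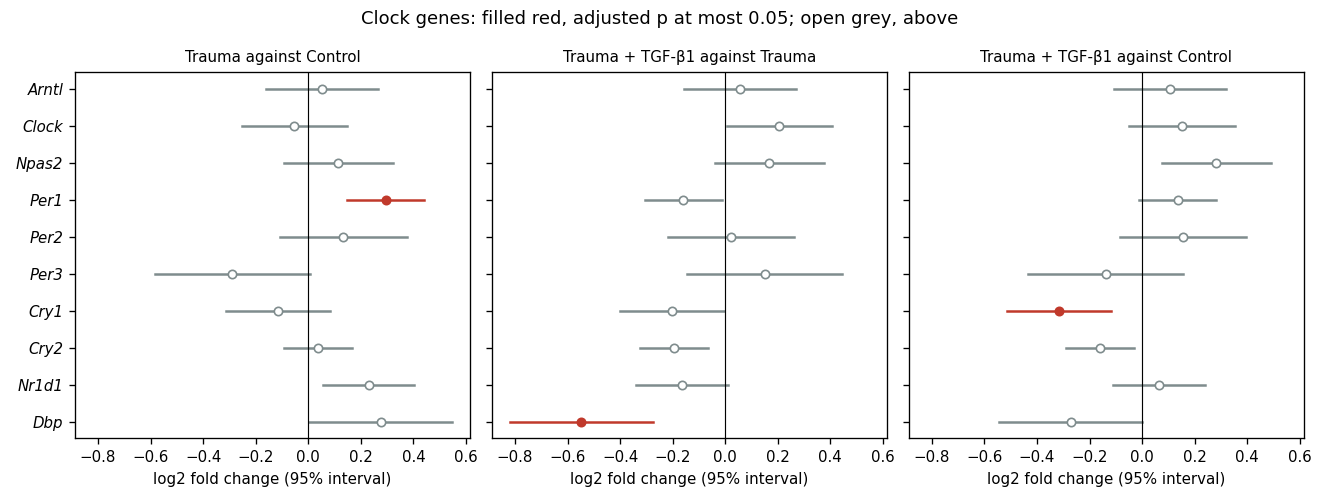
Log2 fold change (horizontal axes) of the 10 clock genes (vertical axis) in 3 comparisons, with 95% intervals from limma; filled red marks an adjusted p of at most 0.05. Per1 at 0.29, Dbp at -0.55 and Cry1 at -0.32 are the filled points, 1 in each comparison.

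Among the activators, limma called none in any comparison. At an unadjusted p of at most 0.05, Clock passed for Trauma + TGF-β1 against Trauma and Npas2 for Trauma + TGF-β1 against Control, and voom called the latter (adjusted p = 0.0475). Arntl (ENSMUSG00000055116, chr7:113207465-113314126, mm10) encodes BMAL1, the partner common to CLOCK and NPAS2. It ranged from 3.91 to 5.40 FPKM in Control, 4.12 to 5.14 after scratching and 4.67 to 5.02 with TGF-β1 added. These ranges overlapped, with Control 1 the highest of all 12 libraries. Arntl had a log2 fold change of 0.05 for Trauma against Control (95% interval -0.16 to 0.26, adjusted p = 0.833) and 0.05 for Trauma + TGF-β1 against Trauma (-0.16 to 0.27, adjusted p = 0.759). For Trauma + TGF-β1 against Control it was 0.11 (-0.11 to 0.32, adjusted p = 0.499).

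Clock (ENSMUSG00000029238, chr5:76209868-76304792) encodes the partner of BMAL1 in the activator pair. It ranged from 4.95 to 5.92 FPKM in Control, 4.56 to 5.51 in Trauma and 5.14 to 6.62 with TGF-β1. With TGF-β1 the log2 fold change against Trauma was 0.21 (95% interval 0.01 to 0.41, adjusted p = 0.160), with Trauma + TGF-β1 2 and 4 above every other library. GC correction brought this value to 0.08 (adjusted p = 0.601) and length correction to 0.10 (adjusted p = 0.473). The intervals reached from -0.25 to 0.15 for Trauma against Control and from -0.05 to 0.35 for Trauma + TGF-β1 against Control.

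Npas2 (ENSMUSG00000026077, chr1:39193731-39363236) encodes the CLOCK paralog that is abundant in forebrain neurons. It stood at 3.91, 3.25, 2.73 and 3.57 FPKM in Control 1 to 4. In Trauma 1 to 4 the FPKM of Npas2 were 3.50, 3.48, 3.83 and 3.68, and in Trauma + TGF-β1 1 to 4 they were 4.19, 3.95, 3.87 and 4.33. Each library with TGF-β1 was thus above each Trauma library, while Control 1 reached into their range. The log2 fold change against Trauma was 0.17 (95% interval -0.04 to 0.38, adjusted p = 0.270) and that against Control was 0.28 (0.07 to 0.49, adjusted p = 0.0633). Without Control 1 the latter was 0.35 (adjusted p = 0.0152), past the threshold.

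Of the period genes, limma called Per1 alone in Trauma against Control, and differences between the period genes were not tested. Per1 (ENSMUSG00000020893, chr11:69095217-69109960) encodes the period repressor best known for rapid induction by outside signals. Its level was 11.5, 11.5, 11.9 and 10.4 FPKM in Control 1 to 4 and 13.5, 12.6, 14.4 and 15.1 FPKM in Trauma 1 to 4. Every Trauma library was above every Control library. Per1 rose by 0.29 on the log2 scale (SE 0.0674, 95% interval 0.15 to 0.44, adjusted p = 0.0244, limma with Benjamini-Hochberg adjustment), from 11.3 ± 0.622 to 13.9 ± 1.06 FPKM (SD, n = 4). In these bulk samples, more RNA per cell and more cells of a type that carries the transcript cannot be told apart. The call ended without Control 4 (adjusted p = 0.0672), without Trauma 3 (0.0720), without Trauma 4 (0.0800), and with no filter on low values (0.0511).

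With TGF-β1, Per1 was at 11.8, 12.0, 13.8 and 12.2 FPKM in libraries 1 to 4. Only the third of these reached into the range of the Trauma libraries, and the other three lay below it. The log2 fold change was -0.16 against Trauma (95% interval -0.31 to -0.01, adjusted p = 0.140) and 0.14 against Control (-0.01 to 0.28, adjusted p = 0.195). Correction of each library for GC content moved these to 0.02 (adjusted p = 0.891) and 0.28 (adjusted p = 0.0143), so the first turned direction and the second passed the threshold. Per1 transcripts hold 59.4% GC, more than 93.9% of tested genes.

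Other genes driven by neuronal activity or by glucocorticoid signalling, and cell type markers, were read in the same libraries. The signals themselves were not measured. Of 12 tested early genes driven by neuronal activity, 10 rose in Trauma against Control, and the summed FPKM of the list ran from 29.8 to 31.3 in Control, 54.0 to 141 in Trauma and 42.7 to 98.8 with TGF-β1. The called genes of largest change were Fos, from 1.38 to 14.4 FPKM, Fosb, from 0.228 to 1.82, and Nr4a1, from 2.77 to 12.2. Fos was at 5.71, 5.99, 23.4 and 22.5 FPKM in Trauma 1 to 4 and at 5.25, 5.78, 18.1 and 13.7 FPKM in Trauma + TGF-β1 1 to 4. Libraries 3 and 4 were the highest of both groups for Fos and also for Per1, and the relation of these early genes to the level of Per1 was not tested. Of 12 genes driven by the glucocorticoid receptor, 5 rose in Trauma against Control, led by Mt2 at 1.01. The other 7 were uncalled, with Tsc22d3 at 0.11, Fkbp5 at 0.05, Sgk1 at -0.07, Errfi1 at 0.02, Zbtb16 at 0.28, Klf15 at 0.36 and Pdk4 at 0.19. The sums were 180 to 209, 253 to 290 and 258 to 280 FPKM, in which Mt1 alone had means of 80.9, 140 and 146. Of 8 astrocyte markers 6 rose in the same comparison, with sums of 206 to 236, 263 to 324 and 278 to 299 FPKM and none at 0. Neuron markers summed to 1356 to 1423, 1214 to 1292 and 1145 to 1185 FPKM, in which Tubb3 alone had means of 960, 842 and 739. For Trauma + TGF-β1 against Control, 3 of the 8 neuron markers rose and 4 fell, with Map2 at 0.18 and Tubb3 at -0.38. Microglia markers summed to 24.0 to 27.7, 34.2 to 40.7 and 31.5 to 34.3 FPKM, and oligodendrocyte lineage markers to 46.3 to 49.1, 57.5 to 64.7 and 56.9 to 63.4 FPKM. Of the neuron markers 1 rose and 2 fell out of 8 in Trauma against Control, and 2 of 5 tested rose in each of the microglia and oligodendrocyte lists. These sums moved with the groups, and their part in the clock gene results was not tested.

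Per2 (ENSMUSG00000055866, chr1:91415982-91459324), the period gene most needed for sustained rhythms in mice, ranged from 1.78 to 2.49 FPKM in Control, 2.16 to 2.49 in Trauma and 2.02 to 2.59 with TGF-β1. The ranges overlapped in every comparison. The log2 fold change was 0.13 for Trauma against Control (95% interval -0.11 to 0.37, adjusted p = 0.570), 0.02 for Trauma + TGF-β1 against Trauma and 0.16 for Trauma + TGF-β1 against Control.

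Per3 (ENSMUSG00000028957, chr4:151003652-151044665), the period gene least needed for rhythm, stood at 1.81, 1.77, 1.91 and 2.05 FPKM in Control 1 to 4. The FPKM in Trauma 1 to 4 were 1.18, 1.55, 1.58 and 1.88. Trauma 4 alone reached into the Control range. Per3 had a log2 fold change of -0.29 (95% interval -0.58 to 0.01, adjusted p = 0.260), close in size to that of Per1 and of opposite sign, though not called. With TGF-β1, Per3 ranged from 1.53 to 2.00 FPKM.

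The balance of Per1 to Per3 was compared within each library as a log2 difference of FPKM, as a description without a test. It ran from 2.29 to 2.63 in Control, 2.94 to 3.41 in Trauma and 2.70 to 2.89 with TGF-β1. The 3 groups did not overlap, with the cultures given TGF-β1 between the others. For Per1 minus Per2 the ranges were 2.16 to 2.54, 2.48 to 2.75 and 2.14 to 2.54, so that 1 Trauma library stood above all others. Nr1d1 minus Arntl, which sets the repressor of the second loop against its target, ran from 1.10 to 1.75, 1.53 to 1.83 and 1.25 to 1.60, with overlap throughout. For Clock minus Npas2, each Trauma library at 0.38 to 0.57 was below each Control library at 0.59 to 0.83. With TGF-β1 this difference ran from 0.40 to 0.73, overlapping both.

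**Figure D3:**
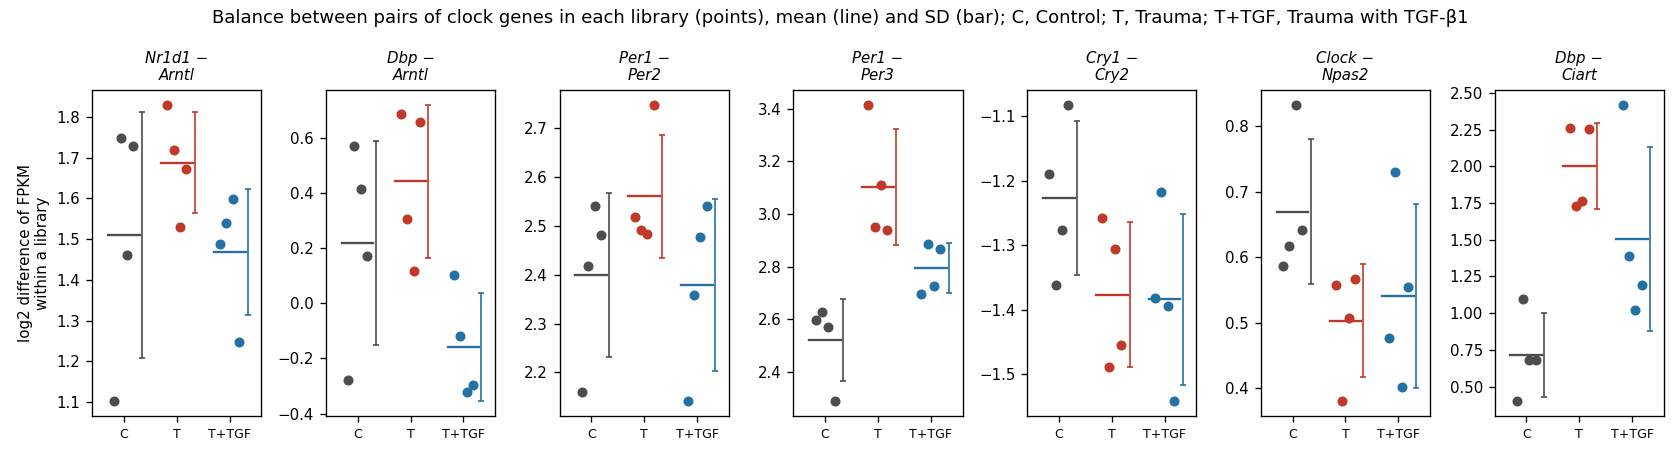
Log2 difference of FPKM within a library (vertical axes, each with its own scale) for 7 pairs of genes by group (horizontal axes); points are libraries, lines are means and bars are SD, n = 4. Only Per1 minus Per3 separates all 3 groups, with Trauma at or above 2.94, Trauma + TGF-β1 between 2.70 and 2.89 and Control at or below 2.63.

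Both cryptochrome genes had their lowest mean level in the cultures given TGF-β1. Cry1 (ENSMUSG00000020038, chr10:85131700-85185064) encodes the stronger cryptochrome repressor. Its level was 6.60, 6.85, 7.62 and 8.04 FPKM in Control 1 to 4, and 7.61, 6.23, 6.60 and 6.41 in Trauma 1 to 4. In Trauma + TGF-β1 1 to 4 it was 5.98, 6.41, 5.94 and 4.99 FPKM, below every Control library. Cry1 fell by 0.32 on the log2 scale against Control (SE 0.0910, 95% interval -0.51 to -0.12, adjusted p = 0.0340, limma), from 7.28 ± 0.670 to 5.83 ± 0.597 FPKM (SD, n = 4). The log2 fold change was -0.11 for Trauma against Control (adjusted p = 0.552) and -0.20 for Trauma + TGF-β1 against Trauma (adjusted p = 0.163), so neither step alone was called. The call ended without Control 2 (adjusted p = 0.0528), Control 3 (0.0901), Control 4 (0.0875), Trauma + TGF-β1 1 (0.0555), 3 (0.0531) or 4 (0.0898). It also ended with no filter on low values (0.0706), in a fit of the 2 groups alone (0.0612) and with scaling by total reads (0.0590).

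Cry2 (ENSMUSG00000068742, chr2:92403646-92434043), the most abundant clock gene, was at 15.2, 17.8, 18.6 and 17.1 FPKM in Control 1 to 4. In Trauma 1 to 4 it was at 18.3, 17.7, 16.5 and 17.8 FPKM, and in Trauma + TGF-β1 1 to 4 at 15.7, 15.0, 15.8 and 14.7. Each library with TGF-β1 was below each Trauma library, and Control 1 was the single Control library in their range. Cry2 had a log2 fold change of -0.195 against Trauma (SE 0.0595, 95% interval -0.32 to -0.07, adjusted p = 0.0529), just outside the threshold. It passed in 7 of 26 alternatives, which are the other settings of the analysis and the omission of each library in turn, among them without Control 1 (adjusted p = 0.0132), without Control 3 (0.0422) and without Trauma 3 (0.0499), and GC correction brought it to -0.08 (adjusted p = 0.374). Against Control the value was -0.16 (-0.29 to -0.03, adjusted p = 0.0888), and without Control 1 it was -0.22 (adjusted p = 0.00772), past the threshold. Within a library, Cry1 minus Cry2 ran from -1.36 to -1.08 in Control, -1.49 to -1.26 in Trauma and -1.54 to -1.22 with TGF-β1, with overlap.

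Nr1d1 (ENSMUSG00000020889, chr11:98767932-98775333) encodes REV-ERBα, the nuclear receptor that represses Arntl. Its level was 11.7, 13.4, 12.4 and 14.6 FPKM in Control 1 to 4. In Trauma 1 to 4 it was 14.9, 16.9, 15.0 and 14.2 FPKM, and in Trauma + TGF-β1 1 to 4 it was 14.3, 13.9, 14.4 and 12.0. Control 4 and Trauma 4 made the first groups overlap. Nr1d1 had a log2 fold change of 0.23 for Trauma against Control (95% interval 0.06 to 0.40, adjusted p = 0.123), -0.16 for Trauma + TGF-β1 against Trauma (-0.34 to 0.01, adjusted p = 0.195) and 0.06 for Trauma + TGF-β1 against Control (-0.11 to 0.24, adjusted p = 0.626). None was called, and GC correction brought the value against Trauma to -0.03 (adjusted p = 0.884). The gene shares 1075 bases with Thra on the opposite strand, and the strand setting of the counting is not given in the sources used here. Thra had means of 192, 186 and 157 FPKM in the 3 groups, far above Nr1d1, so reads of one could count for the other.

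Dbp (ENSMUSG00000059824, chr7:45705088-45710203) encodes the D-box activator through which the clock reaches many output genes. Its level was 4.43, 5.86, 5.97 and 4.90 FPKM in Control 1 to 4 and 6.70, 6.28, 5.59 and 7.01 in Trauma 1 to 4. With TGF-β1 it was 5.40, 4.33, 3.72 and 4.05 FPKM in libraries 1 to 4, each below every Trauma library. Dbp fell by 0.55 on the log2 scale against Trauma (SE 0.125, 95% interval -0.82 to -0.28, adjusted p = 0.0186, limma), from 6.40 ± 0.611 to 4.37 ± 0.727 FPKM (SD, n = 4). This was the largest change among the 10 clock genes in the 3 comparisons. Trauma against Control gave 0.28 (0.00 to 0.55, adjusted p = 0.245) and Trauma + TGF-β1 against Control gave -0.27 (-0.54 to 0.00, adjusted p = 0.160), both uncalled.

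Dbp transcripts hold 61.6% GC, more than 97.5% of tested genes. Over 14699 genes the log2 fold change of Trauma + TGF-β1 against Trauma had a Spearman correlation of -0.465 with GC content, given as a description since genes are not replicates. Correction of each library for GC content brought the value of Dbp to -0.32 (adjusted p = 0.0966), and the call ended, and the value against Control moved to -0.06 (adjusted p = 0.757). The part of base composition in the decrease was not tested further. The call also ended without Trauma 4 (adjusted p = 0.0545), without Trauma + TGF-β1 2 (0.0535) and without Trauma + TGF-β1 4 (0.0555). Dbp shares 737 bases with Sphk2 on the opposite strand, which had means of 7.75, 7.96 and 6.48 FPKM, and the part of these reads in the result was not tested. In the same comparison, 1 astrocyte marker rose and 3 fell out of 8, 1 neuron marker rose and 2 fell out of 8, 3 of 12 glucocorticoid-driven genes fell, and limma called none of the 12 early genes, of which 1 passed at an unadjusted p of at most 0.05. Their part in the decrease of Dbp was not tested. Within a library, Dbp minus Arntl on the log2 scale ran from -0.28 to 0.57 in Control, 0.12 to 0.69 in Trauma and -0.32 to 0.10 with TGF-β1.

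Other overlaps in the table touched Per3, Clock, Cry2, Arntl, Npas2 and Ciart, a pathway gene described below. Per3 lies within Camta1 on the same strand, and Camta1 had means of 20.0, 18.4 and 20.1 FPKM in Control, Trauma and Trauma + TGF-β1. Clock contains the pseudogene Ube2n-ps1 on its own strand, with 101 to 513 reads per library and means of 28.9, 19.9 and 31.2 FPKM. These means, like those of Clock, were lowest in Trauma and highest with TGF-β1, and the part of these reads in the values of Clock was not tested. The antisense RNA D930015M05Rik over Cry2 had 7 to 26 reads, and Gm45355 over Arntl had at most 4. Gm43658 within Clock had at most 6 reads per library, and Gm20428 and Gm3617 within Npas2 had at most 1 and 2. The antisense RNA C920021L13Rik covers 3749 bases of Ciart and had 3 to 10 reads.

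Beyond these genes, 26 of 28 other clock-pathway genes in the table passed the minimum mean level. Trauma against Control called 2 of the 26, both lower, beside the 6.00% of all tested genes. Trauma + TGF-β1 against Trauma called 2, both higher, beside 12.1%, and Trauma + TGF-β1 against Control called 4, of which 1 was higher and 3 lower, beside 16.6%. These shares too stood near or below the background. The ROR and REV-ERB relatives Nr1d2, Rora and Rorb gave no call in limma. Neither did Nfil3, listed with them though of another family, nor the output genes Wee1, Noct and Nampt. At an unadjusted p of at most 0.05, Nfil3 passed in 2 tests, both against Control. Wee1 also passed in 2 tests, both of Trauma + TGF-β1. Calls fell among BMAL1-CLOCK partners, PAR bZIP factors and kinases.

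**Figure D4:**
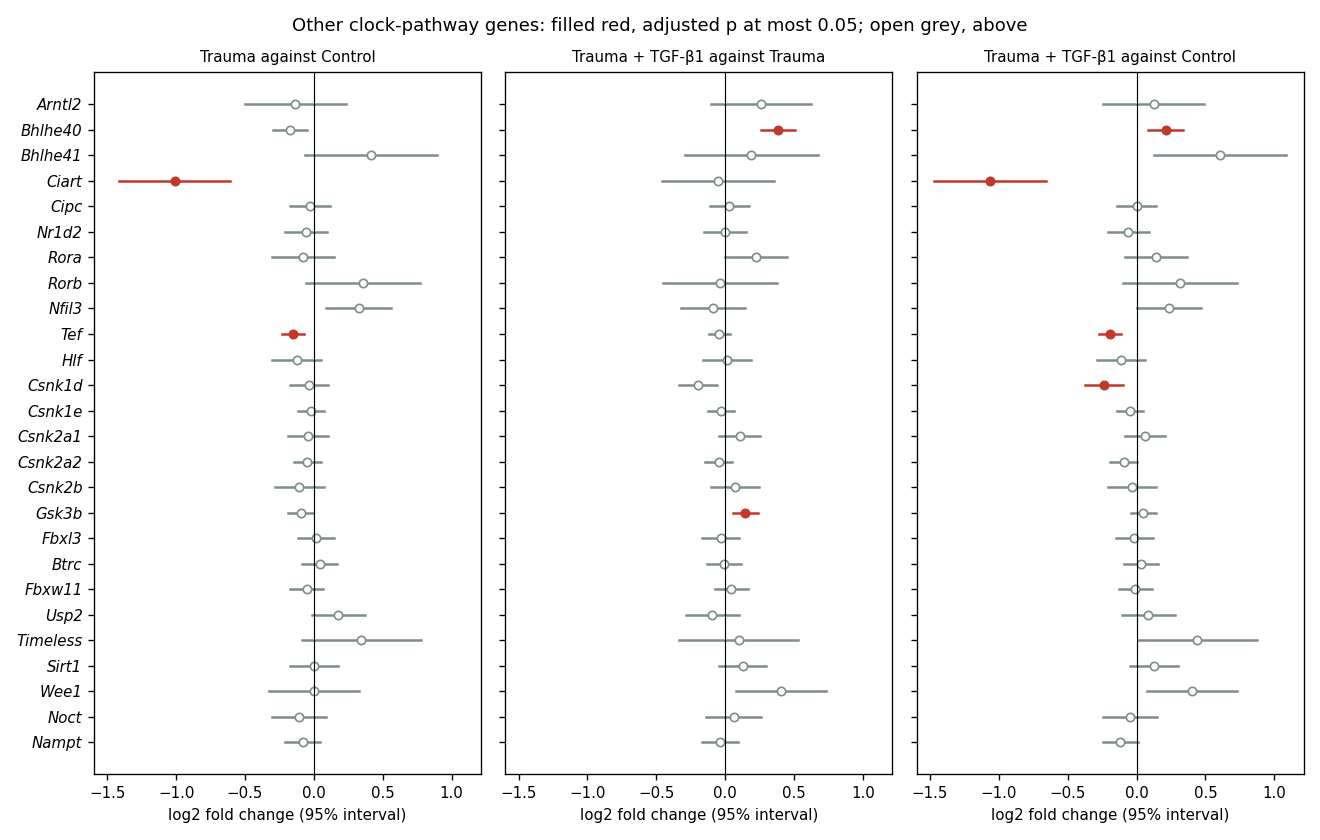
Log2 fold change (horizontal axes) of the 26 tested other clock-pathway genes (vertical axis) in 3 comparisons, with 95% intervals from limma; filled red marks an adjusted p of at most 0.05. Ciart, at -1.01 against Control in Trauma and -1.06 with TGF-β1, lies farthest from 0.

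Ciart (ENSMUSG00000038550, chr3:95878503-95882251) encodes CHRONO, a repressor that binds BMAL1. Its level was 3.33, 2.68, 3.68 and 3.01 FPKM in Control 1 to 4, 1.32, 1.83, 1.58 and 1.39 in Trauma 1 to 4, and 0.929, 1.59, 1.78 and 1.71 in Trauma + TGF-β1 1 to 4. Both scratched groups lay below every Control library. Ciart fell by 1.01 on the log2 scale in Trauma against Control (SE 0.186, 95% interval -1.42 to -0.61, adjusted p = 0.00807) and by 1.06 in Trauma + TGF-β1 against Control (-1.47 to -0.66, adjusted p = 0.00335). Both calls held in all 26 alternatives. The counts were low, with 103 to 131 reads per Control library and 32 to 72 in the scratched cultures. Ciart was at -0.05 for Trauma + TGF-β1 against Trauma (-0.46 to 0.35, adjusted p = 0.888). Thus the repressors Ciart and Per1 were called in opposite directions after scratching, and the part of their E-boxes in these changes was not tested.

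Tef encodes a PAR bZIP factor like DBP and was measured at a higher level. It fell by 0.15 on the log2 scale in Trauma against Control (95% interval -0.23 to -0.07, adjusted p = 0.0305), from 21.9 ± 0.565 to 19.7 ± 0.543 FPKM, and by 0.19 in Trauma + TGF-β1 against Control (-0.27 to -0.11, adjusted p = 0.00475). The second call held in all 26 alternatives and the first in 15 of 26, ending without Control 2 (adjusted p = 0.0733), 3 (0.0736) or 4 (0.0634) and without Trauma 2 (0.0648), 3 (0.0799) or 4 (0.0987). Dbp and Tef therefore had calls in different comparisons. Within a library, Dbp minus Ciart, a pair chosen after its values were seen, ran from 0.40 to 1.10 in Control, 1.73 to 2.26 in Trauma and 1.02 to 2.42 with TGF-β1.

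Bhlhe40 encodes DEC1, a repressor that competes with BMAL1 and CLOCK for E-boxes. It was at 7.03, 6.57, 7.00 and 6.43 FPKM in Control 1 to 4, at 5.92, 5.73, 6.14 and 6.16 in Trauma 1 to 4, and at 7.28, 7.57, 8.01 and 8.52 in Trauma + TGF-β1 1 to 4. No pair of groups overlapped. Bhlhe40 rose by 0.38 on the log2 scale with TGF-β1 against Trauma (SE 0.0573, 95% interval 0.26 to 0.51, adjusted p = 0.00462), a call that held in all 26 alternatives. It rose by 0.21 against Control (0.09 to 0.34, adjusted p = 0.0270), and that call held in 19 of 26, ending without Control 2 (adjusted p = 0.0726) or 4 (0.0684) and without Trauma + TGF-β1 3 (0.0578) or 4 (0.0767). For Trauma against Control the value was -0.17 (-0.30 to -0.05, adjusted p = 0.110), and GC correction brought it to -0.20 (adjusted p = 0.0377), past the threshold.

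Calls among the clock kinases were small in size. Csnk1d, whose casein kinase phosphorylates PER proteins, fell by 0.23 on the log2 scale in Trauma + TGF-β1 against Control (95% interval -0.37 to -0.10, adjusted p = 0.0265), from 30.9 ± 1.93 to 26.3 ± 1.77 FPKM. The call held in 17 of 26 alternatives, with adjusted p of 0.0595 to 0.0744 without Control 2, 3 or 4 or without Trauma + TGF-β1 4. It also ended with no filter on low values (0.0558), with scaling by total reads (0.0525) and with quantile normalization, which gave -0.15 (0.119). Gsk3b, whose kinase acts on several clock proteins, rose by 0.15 with TGF-β1 against Trauma (0.06 to 0.24, adjusted p = 0.0406), from 41.2 ± 1.29 to 45.6 ± 1.50 FPKM. That call held in 14 of 26 alternatives and ended without any single Trauma library and without Control 4 or Trauma + TGF-β1 1, 2 or 4, with adjusted p of 0.0509 to 0.114. Length correction brought Gsk3b to 0.07 (adjusted p = 0.247) and GC correction to 0.09 (adjusted p = 0.212).

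**Figure D5:**
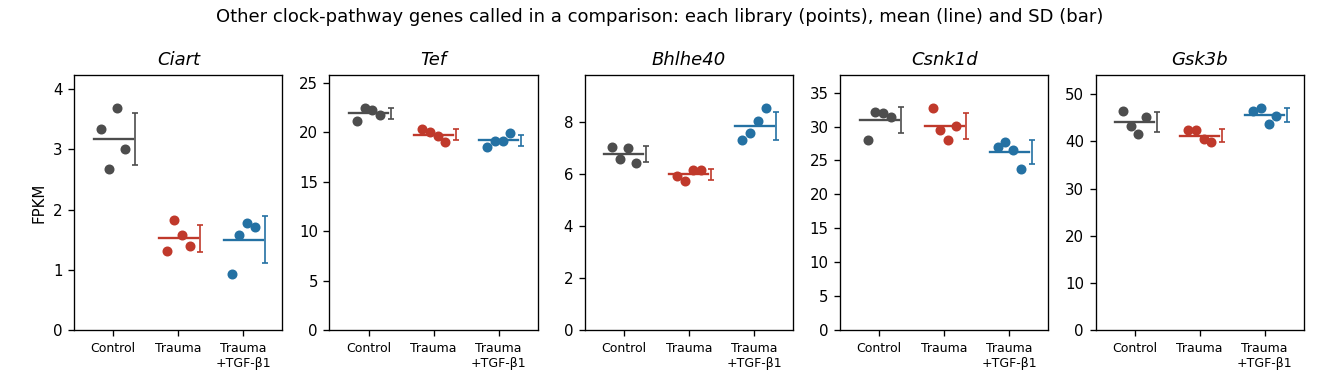
FPKM (vertical axes, each from 0) of the 5 other clock-pathway genes called in a comparison, in 12 libraries by group (horizontal axes); points are libraries, lines are means and bars are SD, n = 4. Ciart is at or above 2.68 FPKM in each Control library and at or below 1.83 in each scratched library, and Bhlhe40 is highest with TGF-β1.

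Likeness of pattern was described for the called clock gene of each comparison, as the root-mean-square difference of mean-centred log2 values over 12 libraries among 12788 genes with a mean of at least 1 FPKM. Nearest to Per1 were Lmf2 at 0.0611, Rgs8 at 0.0655 and Inpp5j at 0.0681, where the median over all candidates was 0.212. Nearest to Dbp were Bbc3 at 0.0775, Mrpl57 at 0.0789 and Rps15 at 0.0998, with a median of 0.318. Nearest to Cry1 were Csnk1d at 0.0808, Nat8l at 0.0821 and Mrpl43 at 0.0833, with a median of 0.225. A gene flat over the 12 libraries would score 0.148 against Per1, 0.279 against Dbp and 0.176 against Cry1, below each median. Csnk1d, one of the other clock-pathway genes, was the closest to Cry1, with Nat8l and Mrpl43 nearly as close. Csnk1d and Cry1 both had their lowest values in Trauma + TGF-β1 4.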

How the data were processed

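The authors aligned paired-end reads to mm10 with HISAT2 2.0.5, after base calling with CASAVA (per the labels), counted reads per gene with featureCounts and deposited FPKM for 12 libraries, not pooled, beside a gene length column in bases, also deposited. Reads recovered from FPKM and length were whole for 100.0% of values within 0.02 reads, and median-of-ratios factors were alike in all libraries, so the deposited FPKM already carried such a scaling. Values were divided by these factors and tested as log2(FPKM + 0.1) with limma 3.58.1 (R 4.3.3) and a mean-variance trend, over genes with a mean of at least 0.5 FPKM, with group as the only term. P-values are two-sided and adjusted by Benjamini-Hochberg over all genes of a comparison. Fold changes are on the log2(FPKM + 0.1) scale and understate those of low genes. The authors' own count model was not rerun. The scripts were checked on data simulated for Trauma against Control, with 200 changed genes at each size. The fit called 19.5% of genes changed by 0.3 on the log2 scale, 51.5% at 0.5 and 74% at 1. Fewer genes were changed there than the 901 called in the data for Trauma against Control, so the adjustment was stricter in the simulation. The shares called may therefore not carry over to the data or to the other comparisons. An uncalled clock gene is still not shown to be unchanged. All 10 clock genes, other clock genes called, the 3 called early genes of largest change, overlapping genes and the nearest patterns were named by rule. The members and lists were chosen with earlier results of these data known. Gene positions are from the table, and 54899 of 55901 genes had the same start and end in GENCODE M21, which also gave GC content. Promoter sequences are RefSeq's on GRCm38.p6. No per-sample column was left unused. Alternatives were other pseudocounts, filters, scalings, fits, GC and length corrections, voom on recovered reads, a replicate block and leaving out each library. Scaling by total reads on genes was added after seeing the data.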

Additional observations from a re-analysis of the deposited data

Results flagged for a closer look

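Csnk1d in Control 1 was at 28.1 FPKM, below the other Control libraries at 31.5 to 32.1 FPKM, a gap that took up 0.849 of the range of the group and was over the 95% limit of Dixon's test for 4 values. It was the single stray value among 45 sets of gene and group that were examined, where chance gives about 1 in 20. Control 1 also stood apart from its group on the first principal components. Without Control 1, Csnk1d in Trauma + TGF-β1 against Control was at -0.28 on the log2 scale (adjusted p = 0.00727, limma), and the call remained.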

How the results depend on the processing

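Counts of clock genes called, 1 in each comparison, were sensitive to the setting. For Trauma against Control the count was 0 with no filter on low values, and 0 to 1 when each library was left out. For Trauma + TGF-β1 against Trauma it was 2 (Cry2 and Dbp) with a minimum mean of 1 FPKM, in a fit of the 2 groups, with voom and with gene length correction, 0 with GC correction and with GC correction plus the replicate block, and 0 to 2 when each library was left out. For Trauma + TGF-β1 against Control it was 0 with no filter, in the 2-group fit and with the replicate block, 2 with voom (Cry1 and Npas2), length correction (Cry1 and Cry2) and GC correction (Cry1 and Per1), and 0 to 3 when each library was left out, with 3 without Control 1.

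The other clock-pathway genes gave 2, 2 and 4 calls. For Trauma against Control the count was 1 (Ciart) with no filter, quantile normalization, the 2-group fit, the replicate block and total reads, 3 with GC correction (adding Bhlhe40) and with the block besides (adding Gsk3b), and 1 to 2 with a library left out. For Trauma + TGF-β1 against Trauma it was 1 (Bhlhe40) with no filter, length correction, GC correction and GC correction with the replicate block, 3 with voom (adding Csnk1d), and 1 to 3 with a library left out, with Csnk1d also called without Control 1. For Trauma + TGF-β1 against Control it was 2 (Ciart and Tef) with no filter, 3 in the 2-group fit (losing Bhlhe40), with total reads and with the block (losing Csnk1d, adjusted p = 0.0529) and with GC correction plus the block (losing both and adding Nampt), 4 with quantile normalization (Gsk3b for Csnk1d), 5 with voom (adding Bhlhe41), length correction (Csnk2a2) and GC correction (Nampt), and 2 to 5 with a library left out.

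Direction turned for these log2 fold changes, none of them called on the turned side. In Trauma against Control, Cry2 was -0.0162 with GC correction, with or without the replicate block, and Csnk1d was 0.0034 with total reads. With a library left out, Arntl ranged from -0.0143 (without Control 2) to 0.1378, Clock from -0.092 to 0.0061 (without Trauma 2) and Cry2 from -0.0223 (without Control 1) to 0.0749. In Trauma + TGF-β1 against Trauma, GC correction, with or without the block, gave Per1 0.0208, Ciart 0.0037 and Tef 0.0325, and length correction gave Ciart 0.0268. With a library left out, Arntl ranged from -0.0031 (without Trauma 1) to 0.1011, Per2 from -0.032 (without Trauma + TGF-β1 1, and also negative without Trauma 4) to 0.0834, and Ciart from -0.1412 to 0.1475 (positive without Trauma 2 and without Trauma + TGF-β1 1). Gsk3b in Trauma + TGF-β1 against Control was -0.0162 with length correction and -0.0185 with GC correction, with or without the block.

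The replicate numbers did not pair the libraries. Deviations of the 12 same-number pairs had r of -0.0088 to 0.0762, and 4 of 12 libraries correlated best with their own number. With the replicate block, Cry1 in Trauma + TGF-β1 against Control had an adjusted p of 0.0678, or 0.0722 with GC correction besides, and all genes called were 786, 1517 and 2267 in the 3 comparisons, beside 901, 1819 and 2487. All genes called for Trauma against Control were 518 in the 2-group fit, 575 with no filter and 1366 with GC correction and the block. They numbered, for Trauma + TGF-β1 against Trauma, 987 with no filter, 818 with GC correction and 740 with the block added, and for Trauma + TGF-β1 against Control 1601 in the 2-group fit. With a library left out they ranged from 486 to 875, 651 to 2541 and 1490 to 3397, each highest without Control 1. The share of higher calls went from 55.0% to 39.0% with GC correction and 74.6% with total reads in Trauma against Control, from 36.3% to 54.8% with quantile normalization in Trauma + TGF-β1 against Trauma, and from 37.1% to 55.3% with quantile normalization and 55.0% with total reads in Trauma + TGF-β1 against Control. The cause of these shifts was not tested. With 4 libraries a group, the 95% intervals of uncalled clock genes reached as far as -0.58 on the log2 scale for Per3 in Trauma against Control, so a change of that size lies within the interval.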
